A study of Mus musculus with 88 samples.

Results

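The genes described here are 7 of the 18069 that had a named probe on the array. They are the chemokine genes Cxcl9, Cxcl10 and Cxcl11, their receptor gene Cxcr3, the ubiquitin-like modifier gene Ubd, the membrane protein gene Calhm6, and Ifng, which encodes interferon gamma. They were taken by gene symbol, updated through the Entrez number, with the probe of the highest mean log2 intensity kept for a gene with several, but each of the 7 had 1 probe. The set was chosen by earlier values of these arrays, in which the log2 response of Cxcl9 to carbon ions at 6 h differed between tumours (-2.86 in NR-S1 and 1.00 in SCCVII), so the values of that contrast are given as a description, and counts at 6 h after carbon ions include it. Of the 7, 6 passed the filter on dim genes. Ifng did not, with a mean log2 intensity of -1.59 against a filter edge of -1.30, and its tests come from a fit without that filter over 17936 genes.

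The study used 88 arrays in a single colour for 4 mouse tumours grown in the hind legs of C3H/HeNrs mice. By their labels, NR-S1 and SCCVII are carcinomas of squamous cells, NFSa is a fibrosarcoma of spontaneous origin and #8520 a fibrosarcoma induced by radiation. Each was irradiated with carbon ions at 30 Gy or with gamma rays at 30 or 50 Gy and sampled 6 h, 1 day or 3 days later, and each beam had its own unirradiated tumours, called the carbon-ion arm and the gamma arm here. This gave 44 groups of 2 arrays, and the study set carbon ions against gamma rays as the reference beam. Each tumour is a transplanted line in 1 mouse strain, so that the 4 tumours do not stand for carcinomas or fibrosarcomas in general. Nothing in the labels tells whether the 2 arrays in a group are from different animals, and the p-values measure only the spread between these arrays, which may be technical. In the gamma arm, the labels of the day 1 arrays carry other replicate numbers than those of the untreated, 6 h and day 3 arrays. The reason is not given. Intensities are on a linear scale with an array median of 1.02 to 1.07, and the number of arrays limits their precision. Krt5, a keratin of squamous epithelium, lay between 205.9 and 526.9 on the untreated NR-S1 arrays but between 0.3 and 0.351 on the untreated SCCVII arrays, as low as in the fibrosarcomas NFSa (0.254 to 0.37) and #8520 (0.205 to 0.313). On 8 arrays, those of SCCVII and #8520 at day 1 and day 3 after 50 Gy of gamma rays, the 1st percentile of all probes lay between 0.297 and 0.378, compared with 0.0128 to 0.134 for the remaining 80, and the counts and tests they enter are given without them as well where a statement rests on them.

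Interferon gamma is a cytokine made mainly by activated T cells and natural killer (NK) cells. It signals through its receptor and the kinases Jak1 and Jak2, and the transcription factor Irf1 is among those that then switch on target genes. The chemokines Cxcl9, Cxcl10 and Cxcl11 are among those targets and attract T and NK cells that carry the receptor Cxcr3. Cxcl10 can also be induced by type I interferons. Ubd, also called FAT10, tags proteins for the proteasome and is induced by interferon gamma together with tumour necrosis factor. Calhm6 belongs to a family of large-pore channels and is found on activated macrophages and dendritic cells, where it takes part in the activation of NK cells. In tumours these genes are widely used as signs of an ongoing lymphocyte response.

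The promoters of 4 genes that moved together on these arrays are shown with the letters of 2 motifs, an interferon-stimulated response element and an NF-kB site, marked in them. RefSeq promoter entries of assembly GRCm38.p6 were matched for 6 of the 7 genes, all but Cxcl11, and the 250 bases before the annotated start were read 5' to 3' on the gene's strand. The assembly is of a strain other than the C3H mice used. The windows are chr5:92328080-92328329 on the minus strand, chr5:92348890-92349139 on the minus strand, chr17:37193642-37193891 on the plus strand and chr10:34127973-34128222 on the minus strand, and capitals mark motif matches on either strand.
Cxcl9: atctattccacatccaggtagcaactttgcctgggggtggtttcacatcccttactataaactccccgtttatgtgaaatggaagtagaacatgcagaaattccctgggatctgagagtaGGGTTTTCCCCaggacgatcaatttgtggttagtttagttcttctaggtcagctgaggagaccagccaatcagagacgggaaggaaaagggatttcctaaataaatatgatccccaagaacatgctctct
Cxcl10: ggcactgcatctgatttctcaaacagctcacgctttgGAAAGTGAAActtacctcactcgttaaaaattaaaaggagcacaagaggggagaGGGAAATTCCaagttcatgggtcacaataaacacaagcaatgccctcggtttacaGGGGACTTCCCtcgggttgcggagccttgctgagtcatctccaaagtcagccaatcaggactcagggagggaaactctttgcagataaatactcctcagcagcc
Ubd: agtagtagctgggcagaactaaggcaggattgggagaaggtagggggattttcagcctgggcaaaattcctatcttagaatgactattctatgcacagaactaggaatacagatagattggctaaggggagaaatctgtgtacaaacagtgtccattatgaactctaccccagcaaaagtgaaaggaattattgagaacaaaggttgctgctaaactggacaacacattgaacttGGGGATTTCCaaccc
Calhm6: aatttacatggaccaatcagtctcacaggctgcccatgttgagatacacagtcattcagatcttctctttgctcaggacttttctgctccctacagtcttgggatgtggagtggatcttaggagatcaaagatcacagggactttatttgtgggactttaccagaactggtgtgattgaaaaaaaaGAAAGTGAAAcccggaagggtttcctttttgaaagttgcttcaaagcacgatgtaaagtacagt
The letters of an interferon-stimulated response element, searched as GAAA, any 2 bases and GAAA, occurred once in Cxcl10, 213 to 204 bases before the start, and once in Calhm6, 64 to 55 bases before it, both as GAAAGTGAAA, and in 2.98% of 32536 promoter windows of the same length. The letters of an NF-kB site, searched as GGG, any 5 bases and CC, occurred in Cxcl9, Cxcl10 and Ubd, but also in Cxcr3, which did not move with them, and in 46.0% of all windows, and in Cxcl9 and Cxcl10 several of the matches overlap each other. A match is a run of letters and no evidence of binding.

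In untreated tumours the chemokines, Ubd and Calhm6 differed between the arms as well as between tumours. In NFSa, Cxcl9 read 1.95 and 2.11 in untreated tumours of the carbon-ion arm, against 63.9 and 76.5 in those of the gamma arm. NR-S1 went the other way, with 32.9 and 38.2 in the carbon-ion arm against 3.39 and 3.47 in the gamma arm. In SCCVII it read 31.7 and 36.9 in the carbon-ion arm against 42.0 and 42.5 in the gamma arm, and in #8520 it read 55.6 and 57.9 against 57.0 and 75.3. The arms were thus far apart in NFSa and NR-S1, narrowly apart in SCCVII, and overlapped in #8520. None of these tumours had been irradiated.

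Tested with limma, with Benjamini-Hochberg adjustment over all genes, Cxcl9 was 34.5-fold lower in the carbon-ion arm of NFSa (log2 -5.11, SE 0.102, adjusted p = 1.3e-41) and 10.3-fold higher in that of NR-S1 (log2 3.37, SE 0.102, adjusted p = 3.7e-32). Of the 6 genes tested, 5 were lower in the carbon-ion arm of NFSa, all but Cxcr3, where 20.2% of all genes were lower and 29.0% higher. In NR-S1 all 6 were higher, where 30.7% of all genes were and 18.6% were lower. In SCCVII 1 was higher (background 18.7%) and 2 were lower (27.6%), and in #8520 1 was higher (18.3%) and 1 lower (17.3%). The log2 differences in NFSa were -2.98 for Cxcl10, -3.65 for Cxcl11, -4.04 for Ubd and -4.95 for Calhm6. In NR-S1 they were 2.37 for Cxcl10, 3.10 for Cxcl11, 2.95 for Ubd and 0.94 for Calhm6. Ifng itself, in the fit without the filter, was lower in the carbon-ion arm of NFSa, at 0.0545 and 0.125 against 2.25 and 2.33 in the gamma arm (adjusted p = 3.1e-11), and higher in that of NR-S1, at 0.289 and 0.291 against 0.0517 and 0.0768 (adjusted p = 2.9e-04). The low values lie in the range of the arrays' 1st percentiles, so no fold is given for them.

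**Figure D1:**
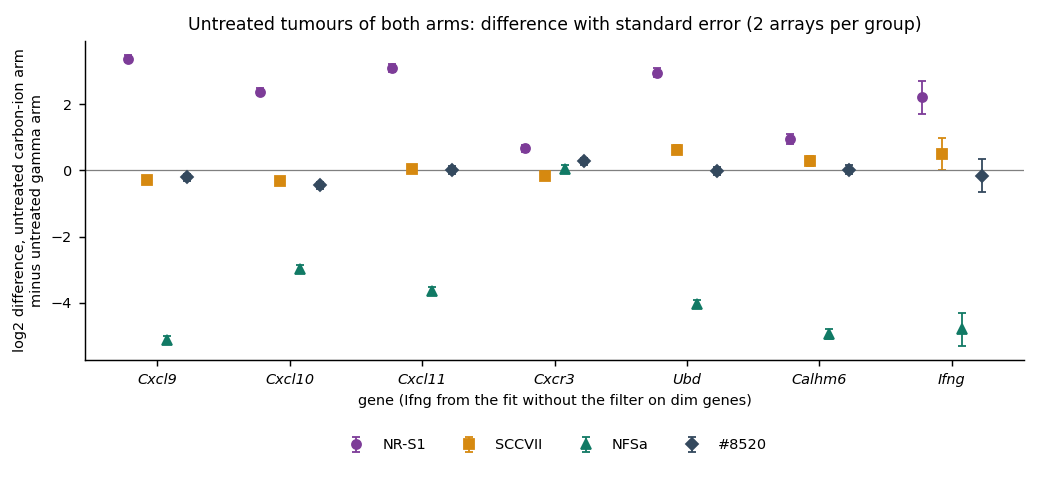
Difference in log2 intensity between untreated tumours of the carbon-ion arm and of the gamma arm for each gene (points, 1 per tumour, with standard error, 2 arrays per group). NFSa lies between -5.11 and -2.98 for the chemokines, Ubd, Calhm6 and Ifng, NR-S1 between 0.94 and 3.37 for the same genes, and Cxcr3 stays within 0.66 in every tumour. The low side of Ifng in NFSa and NR-S1 is near the bottom of the arrays' range, so its plotted size there is not a measured fold.

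Other interferon-induced genes and markers of NK and cytotoxic cells differed between the arms in the same direction in NFSa and NR-S1. Markers of T cells and neutrophils did so mainly in NFSa. Of 20 other genes induced by interferon gamma, 20 were lower in the carbon-ion arm of NFSa (median log2 -2.42) and 17 higher in that of NR-S1 (median 1.41). Of 10 NK and cytotoxic markers, 10 were lower in the untreated carbon-ion arm of NFSa (median log2 -2.56, median of all genes 0.06), and their summed intensity was 14.2 and 14.7 in that arm against 89.0 and 92.8 in the gamma arm. In NR-S1, 9 of 10 were higher in the carbon-ion arm (median 0.61, all genes 0.09), with summed intensities of 12.2 and 13.8 against 2.63 and 2.70. Of 10 T cell markers, 8 were lower and 1 higher in the carbon-ion arm of NFSa (median -1.57), summing to 13.2 and 13.4 against 24.4 and 24.7, and in NR-S1 3 were higher and 1 lower. Of 8 neutrophil markers, 6 were lower and 1 higher in the carbon-ion arm of NFSa (S100a9 at -2.98), summing to 19.2 and 20.1 against 85.4 and 92.9. In NR-S1 the log2 differences of the neutrophil markers ran from -0.79 for Cxcr2 to 0.50 for S100a9. In SCCVII 4 neutrophil markers were higher and 1 lower (S100a9 at 2.50), where of the 6 tested genes 1 was higher and 2 were lower. Cd3e was in the lowest 25% of its array on 87 of the 88 arrays, Cd8a on 36 and the NK marker Klrb1c on 31. Their part in the difference was not tested. In whole tumours, fewer cells of a type and less RNA per cell cannot be told apart. Macrophage markers summed to 888.0 and 905.8 in the carbon-ion arm of NFSa against 859.8 and 972.1 in the gamma arm, so that the arms overlapped. Such a sum is set mostly by the brightest genes, and single markers went both ways. Their log2 differences ran from -1.22 for Aif1 to 1.14 for Mrc1. Genes of skeletal muscle, the tissue of the hind leg, were higher in the untreated carbon-ion arm of SCCVII, 12 of 12, summing to 397.9 and 426.5 against 30.8 and 31.8.

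As the untreated groups of a tumour differed this much, each irradiated group was compared both with the untreated arrays of its own arm and with those of both arms. By tumour, averaged over both arms, #8520 had the highest and NR-S1 the lowest levels of the chemokines, Ubd and Calhm6. The mean log2 intensity of Cxcl10 was 6.26 in #8520, 4.60 in NFSa, 4.54 in SCCVII and 3.06 in NR-S1, and NFSa and SCCVII did not pass the test against the mean of the other tumours (adjusted p = 0.782 and 0.153). For Ubd it was 5.62 in #8520, 5.15 in SCCVII, 3.35 in NFSa and 1.55 in NR-S1. Of 24 combinations of gene and tumour, 9 were higher and 9 lower than the mean of the other 3 tumours (background 33.8% and 33.9%). The averages hide the arms, since Cxcl9 in untreated NFSa of the gamma arm was above any SCCVII array without treatment.

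After irradiation, the 6 tested genes were called lower than in untreated tumours more often than higher at 6 h and day 1, and higher more often than lower at day 3, with large exceptions by tumour and beam. At each time there were 72 combinations of the 6 tested genes with 12 irradiated groups. Against untreated tumours of the same arm, 18 were higher and 31 lower at 6 h (background over all genes and groups 13.7% and 14.1%), 14 higher and 45 lower at day 1 (16.7% and 18.6%), and 42 higher and 14 lower at day 3 (19.5% and 26.9%). Against the untreated tumours of both arms, 16 were higher and 41 lower at 6 h (20.1% and 21.0%), 10 higher and 54 lower at day 1 (22.1% and 24.5%), and 46 higher and 13 lower at day 3 (23.8% and 31.9%). A rule set after seeing the data asked that both irradiated arrays lie above, or below, all 4 untreated arrays of the tumour. By it 10 were above and 23 below at 6 h (18.8% and 19.0%), 10 and 39 at day 1 (20.2% and 21.8%), and 31 and 9 at day 3 (21.6% and 28.8%). Without the 8 arrays that stand apart, the same-arm counts over 60 combinations were 14 higher and 34 lower at day 1 and 37 higher and 10 lower at day 3. Against both arms they were 10 and 42 at day 1 and 40 and 9 at day 3, and by the rule of all 4 arrays 10 and 27 at day 1 and 26 and 5 at day 3. For the 5 genes other than Cxcr3, 30 of 60 combinations were lower at 6 h against the same arm and 40 against both arms.

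The choice of untreated arrays turned the direction of called differences in the 2 tumours whose arms were far apart for these genes. Of 54 combinations of gene, beam and time each, 7 in NR-S1 and 9 in NFSa were called in opposite directions by the same-arm and the both-arm comparison, against 0 in SCCVII and 0 in #8520. The share of all genes called in opposite directions is not at hand, so these counts only describe the genes named. The responses below are therefore given with the array values, and called lower or higher without qualification only where both comparisons made that call.

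**Figure D2:**
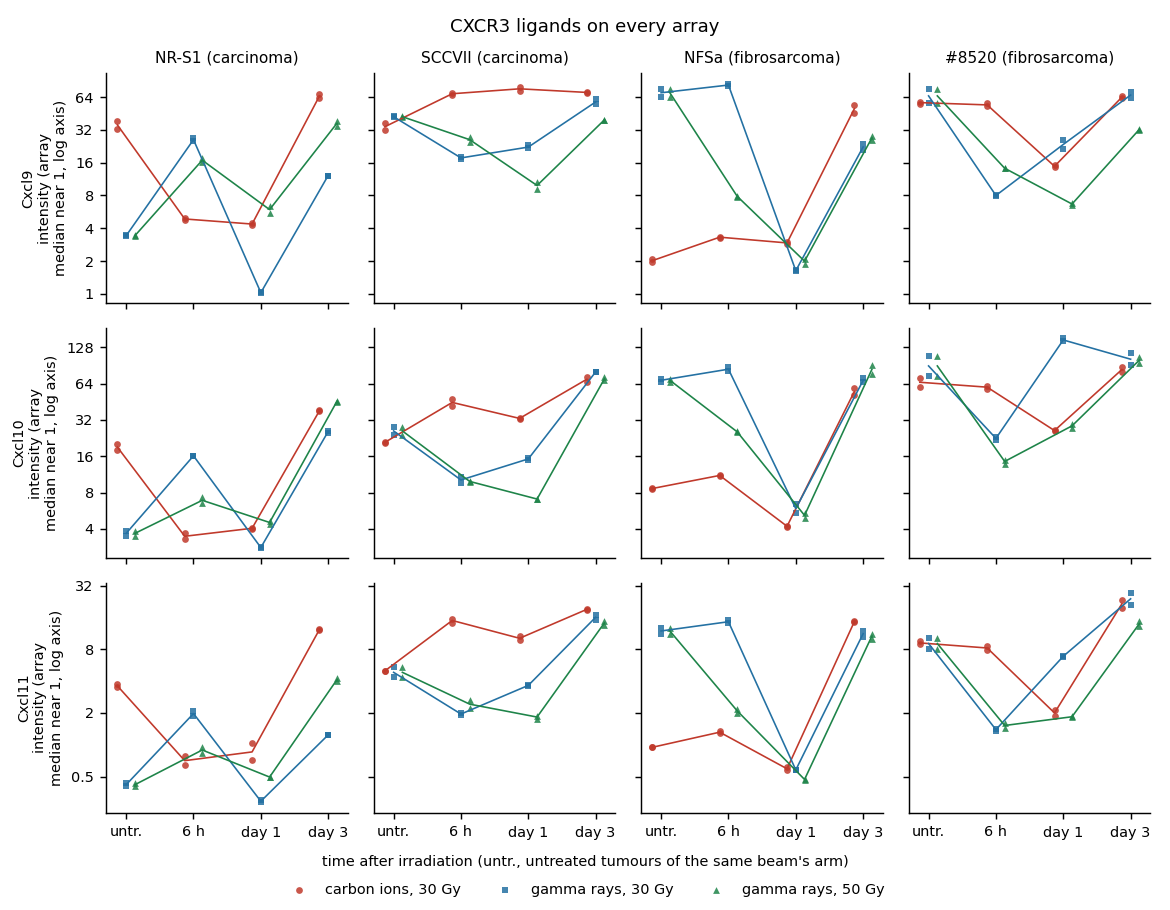
Intensity of Cxcl9, Cxcl10 and Cxcl11 on every array (log axis) against time, by tumour, for 30 Gy of carbon ions, 30 Gy of gamma rays and 50 Gy of gamma rays. Points are arrays, lines join the geometric means of 2 arrays, and the same untreated gamma-arm arrays start both gamma series. Levels at day 3 lie above those at day 1 in nearly every series, and the untreated arms lie far apart in NFSa and NR-S1.

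In SCCVII, carbon ions and gamma rays were followed by opposite early changes, on arms whose untreated levels were close. After carbon ions Cxcl9 read 31.7 and 36.9 untreated, 67.1 and 70.1 at 6 h, 73.4 and 78.8 at day 1, and 69.6 and 71.5 at day 3. After 30 Gy of gamma rays it read 42.0 and 42.5 untreated, 17.3 and 18.1 at 6 h, 21.6 and 23.0 at day 1, and 54.7 and 60.8 at day 3. After 50 Gy of gamma rays it read 24.8 and 27.3 at 6 h, 9.18 and 10.6 at day 1, and 39.3 and 39.7 at day 3. Carbon ions thus left Cxcl9 above all 4 untreated arrays at each time, while both gamma doses put it below all 4 at 6 h and day 1. The other chemokines did the same at those times, and the 50 Gy arrays of day 1 and day 3 are among those that stand apart. Cxcl10 was 42.0 and 47.6 at 6 h after carbon ions and 9.66 and 10.7 after 30 Gy of gamma rays, against 20.6 to 28.1 on the 4 untreated arrays. Cxcl11 was 14.3 and 15.6 at 6 h after carbon ions and 1.92 and 1.99 after 30 Gy of gamma rays, against 4.33 to 5.41 untreated. Calhm6 was highest in SCCVII at day 1 after carbon ions, at 30.5 and 34.9, against 7.62 and 8.08 in untreated tumours of that arm. After 50 Gy of gamma rays at day 1 it was 1.53 and 1.91, on arrays that stand apart.

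At day 3 in SCCVII, Cxcl10, Cxcl11 and Calhm6 were above all 4 untreated arrays after every beam and dose. Cxcl10 read 66.0 and 73.0 after carbon ions, 79.1 and 80.2 after 30 Gy of gamma rays and 68.0 and 72.0 after 50 Gy. Its rise over the untreated arrays of the same arm was 1.74 on the log2 scale after carbon ions, 1.62 after 30 Gy and 1.43 after 50 Gy of gamma rays. Ubd, at 51.8 and 59.2, 44.8 and 54.4, and 55.9 and 67.0 in the same order, had smaller same-arm differences (log2 0.32, 0.78 and 1.09). Cxcl9 at day 3 after 50 Gy did not pass either test, with a same-arm log2 difference of -0.10, but under quantile normalization it was called higher (0.27, adjusted p = 0.00485).

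In #8520 the chemokines, Ubd and Calhm6 were all lower at 6 h after either gamma dose, while after carbon ions only Calhm6 was lower in both comparisons (log2 -0.50 against the same arm). At day 1 they were lower after carbon ions as well. Cxcl9 after carbon ions read 55.6 and 57.9 untreated, 52.4 and 56.1 at 6 h, 14.6 and 15.1 at day 1, and 62.5 and 65.2 at day 3. After 30 Gy of gamma rays it read 57.0 and 75.3 untreated, 7.91 and 8.09 at 6 h, 21.2 and 25.9 at day 1, and 62.3 and 71.4 at day 3. Day 3 arrays thus lay above the untreated ones of the same arm after carbon ions and among them after gamma rays, and the limma test against those arrays gave adjusted p = 0.166 after carbon ions and 0.857 after gamma rays. After 50 Gy of gamma rays Cxcl9 was 14.2 and 14.3 at 6 h, 6.55 and 6.81 at day 1 and 32.1 and 32.4 at day 3, the last 4 on arrays that stand apart. Cxcl10 broke the pattern in 1 group. It read 142.8 and 151.5 at day 1 after 30 Gy of gamma rays, the highest values of Cxcl10 on any array, against 60.1 to 109.1 on the 4 untreated arrays, while Cxcl9, Cxcl11, Ubd and Calhm6 of the same 2 arrays were below all 4 untreated arrays. Cxcl11 was above all 4 untreated arrays at day 3 after every beam and dose, at 19.7 and 23.5 after carbon ions, 21.1 and 27.2 after 30 Gy and 13.2 and 14.8 after 50 Gy of gamma rays, against 8.04 to 10.2 untreated. Calhm6 was above them after 30 Gy of either beam, at 25.3 and 31.0 after carbon ions and 27.3 and 39.9 after gamma rays, against 12.2 to 14 untreated. Ubd at day 3 was below all 4 untreated arrays (44.7 to 55.2) after carbon ions, at 36.6 and 38.9. It was also below them after 50 Gy of gamma rays, at 32.1 and 34.4 on arrays that stand apart. After 30 Gy of gamma rays Ubd was above them, at 62.5 and 65.4.

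In NR-S1 the highest levels of Cxcl9, Cxcl11, Ubd, Calhm6 and Ifng came at day 3 after carbon ions, and that of Cxcl10 at day 3 after 50 Gy of gamma rays (45.1 and 46.2). Ubd after carbon ions read 7.89 and 8.42 untreated, 0.925 and 1.19 at 6 h, 1.05 and 1.08 at day 1, and 81.0 and 97.3 at day 3. After 30 Gy of gamma rays it read 0.953 and 1.17 untreated, 4.99 and 5.92 at 6 h, 0.953 and 1.04 at day 1, and 1.59 and 1.65 at day 3. After 50 Gy of gamma rays it read 1.95 and 2.01 at 6 h, 1.59 and 1.62 at day 1 and 9.12 and 9.50 at day 3. The day 3 level after carbon ions was 3.45 higher on the log2 scale than in untreated tumours of that arm and 97.3 was the highest value of Ubd on any of the 88 arrays. Cxcl9 at day 3 was 62.9 and 68.3 after carbon ions, 12.2 on both arrays after 30 Gy of gamma rays and 34.9 and 38.8 after 50 Gy, against untreated levels of 32.9 and 38.2 in the carbon-ion arm and 3.39 and 3.47 in the gamma arm. Calhm6 was 31.9 and 33.5 at day 3 after carbon ions and at most 9.14 in any other NR-S1 group. Cxcl9 at 6 h was 4.76 and 5.01 after carbon ions and 25.3 and 26.7 after 30 Gy of gamma rays, each lying between the levels of the 2 untreated arms.

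NFSa had the deepest fall of Cxcl9 against its own arm, at day 1 after 30 Gy of gamma rays (log2 -5.42, against -2.86 with both arms). Cxcl9 after 30 Gy of gamma rays read 63.9 and 76.5 untreated, 80.2 and 84.8 at 6 h, 1.61 and 1.66 at day 1, and 21.0 and 23.8 at day 3. After carbon ions it read 1.95 and 2.11 untreated, 3.29 and 3.33 at 6 h, 2.89 and 2.99 at day 1, and 45.8 and 54.6 at day 3. After 50 Gy of gamma rays it read 7.76 and 7.95 at 6 h, 1.90 and 2.11 at day 1 and 25.8 and 28.2 at day 3. At day 3 all 3 irradiated groups lay between the untreated arms, so that gamma rays were followed by a lower level against their own arm (log2 -1.65 after 30 Gy) and a higher one against both arms (0.91). Cxcl10 at day 3 was 51.0 and 59.2 after carbon ions, 65.6 and 70.6 after 30 Gy and 77.2 and 91.1 after 50 Gy of gamma rays, against 8.49 and 8.74 untreated in the carbon-ion arm and 66.2 and 70.2 in the gamma arm. Calhm6 had its highest level of all arrays in NFSa at day 3 after carbon ions, at 40.2 and 42.6, close to the 31.0 and 41.4 of untreated NFSa of the gamma arm. Ubd was lower at day 3 by both comparisons after either gamma dose, at 5.07 and 5.64 at day 3 after 30 Gy of gamma rays against 38.1 and 45.0 untreated in that arm and 2.44 and 2.59 in the other.

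**Figure D3:**
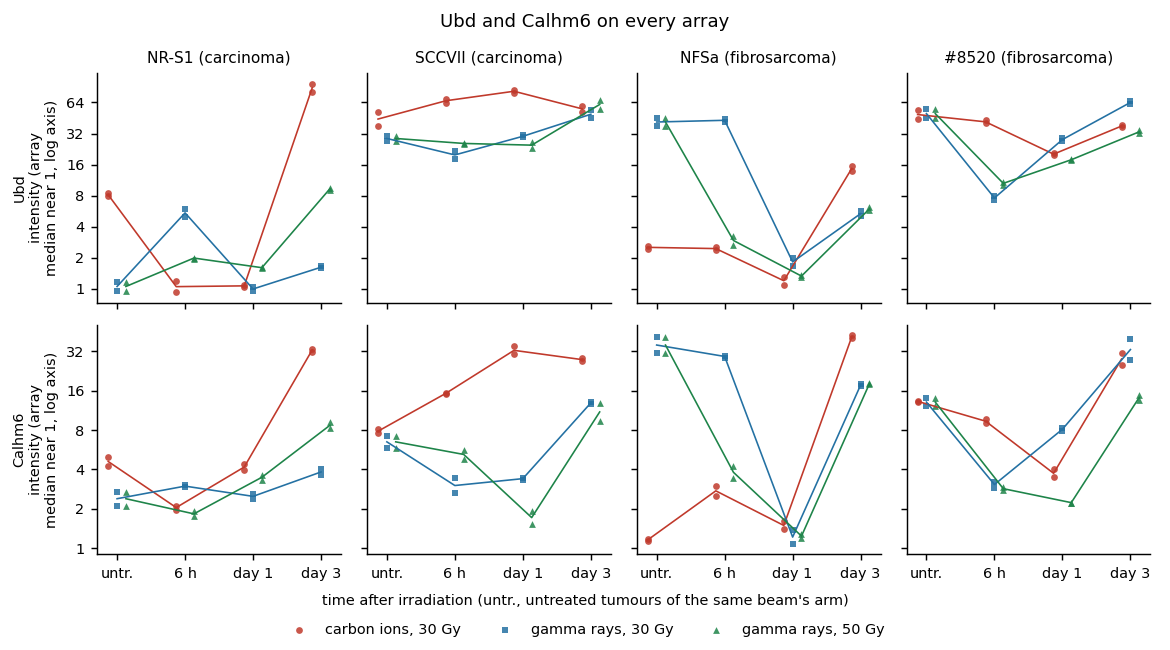
Intensity of Ubd and Calhm6 on every array (log axis) against time, by tumour and beam, drawn as in the plot of the chemokines. Ubd in NR-S1 reaches 81.0 and 97.3 at day 3 after carbon ions and 1.59 and 1.65 after 30 Gy of gamma rays, and Calhm6 is higher at day 3 than at day 1 in 11 of 12 series.

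Day 3 and day 1 can be set against each other without any untreated tumour, and there the chemokines, Ubd and Calhm6 were higher at day 3 in nearly every series. This comparison was chosen after the data were seen. In the gamma series the day 1 arrays carry other replicate numbers than the day 3 arrays. There, time cannot be told apart from a difference between the sets of arrays. Over the 12 series of tumour, beam and dose, both day 3 arrays lay above both day 1 arrays in 12 for Cxcl11, in 11 each for Cxcl9, Cxcl10, Ubd and Calhm6, in 10 for Ifng and in 2 for Cxcr3. No share over all genes is at hand for this rule, so these counts only describe the arrays. The limma counts below have such a share. The exceptions were SCCVII after carbon ions, where Cxcl9, Ubd and Calhm6 were already high at day 1, and #8520 after 30 Gy of gamma rays, where Cxcl10 was at its peak at day 1. Of 72 combinations of gene and series, 56 were higher at day 3 and 8 lower (background 13.8% and 18.6%), and 46 and 7 of 60 without the 8 arrays. In the carbon-ion series, whose replicate numbers do not change, 5 of 6 genes were higher at day 3 in NR-S1, NFSa and #8520. In these 3 tumours 0, 1 and 1 were lower, and in SCCVII 2 were higher and 2 lower. Cxcl11, the dimmest of the 3 chemokines, was higher at day 3 by between 0.91 on the log2 scale in SCCVII and 4.62 in NFSa, both after carbon ions. Day 3 against 6 h, the comparison planned at first, gave 47 higher and 14 lower of 72 (17.3% and 25.1%).

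A stricter comparison, also chosen after the data were seen, counted each group once, as the mean of its 2 arrays, with terms for tumour and condition and the 2 untreated groups of a tumour as 2 replicates. The spread then includes that between arms. The other replicate numbers at day 1 of the gamma arm remain in this comparison. Day 3 exceeded day 1 by 3.05 for Cxcl11 on the log2 scale (SE 0.468, adjusted p = 1.1e-05), 2.56 for Cxcl10 (SE 0.416, adjusted p = 2.3e-05), 2.57 for Cxcl9 (SE 0.534, adjusted p = 5.7e-04), 2.45 for Calhm6 (SE 0.470, adjusted p = 2.1e-04) and 1.78 for Ubd (SE 0.532, adjusted p = 0.0158). These are 5 of 6 genes, where 8.27% of all genes were higher and 10.2% lower. Ubd did not pass without NR-S1 (1.31, adjusted p = 0.132) or without NFSa (1.56, adjusted p = 0.0842). The other 4 passed without the 8 arrays and without each tumour in turn. Cxcr3 did not differ past the threshold (-0.22, SE 0.129, adjusted p = 0.253).

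Against untreated groups in the same fit, day 3 was higher for 3 of 6 genes (background 11.8%), Cxcl11 by 1.59 (SE 0.524, adjusted p = 0.0194), Cxcl10 by 1.38 (SE 0.465, adjusted p = 0.0221) and Calhm6 by 1.38 (SE 0.525, adjusted p = 0.0436). None of the 3 passed without NR-S1 or without SCCVII, where their adjusted p lay between 0.0628 and 0.156, and Calhm6 did not pass without the 8 arrays (adjusted p = 0.0511) or without #8520 (0.103) either. Cxcr3 was lower by 0.37 (SE 0.144, adjusted p = 0.05 and just under the threshold, background 19.7%), and not past the threshold without the 8 arrays (-0.16, adjusted p = 0.154) or without any 1 tumour. At 6 h and day 1, limma called 0 of 6 genes in either direction over all beams, against 3.45% higher and 3.09% lower at 6 h and 2.92% and 2.78% at day 1 among all genes. At an unadjusted p under 0.05 limma gave 0 genes at 6 h and 5 lower at day 1. The day 1 estimates ran from -1.79 for Cxcl9 (SE 0.597, adjusted p = 0.0710) to -0.14 for Cxcr3. By beam, only carbon ions at day 3 gave calls on the higher side, 2 of 6 genes (background 10.9%), Calhm6 at 2.26 (SE 0.705, adjusted p = 0.0164) and Cxcl11 at 2.16 (SE 0.703, adjusted p = 0.0213). After 50 Gy of gamma rays 2 were lower at day 1 (background 12.8%), Cxcl11 (-1.97) and Cxcr3 (-0.58), and Cxcr3 alone at day 3 (-0.77, background 20.8%). Without the 8 arrays none of these 3 passed, with Cxcl11 at -2.10 (adjusted p = 0.516) and Cxcr3 at 0.03 (0.965) at day 1 and -0.15 (0.560) at day 3. The carbon-ion calls passed without the 8 arrays, but Calhm6 did not pass without NR-S1 (adjusted p = 0.154), nor Cxcl11 without NR-S1 (0.152) or without SCCVII (0.0574).

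**Figure D4:**
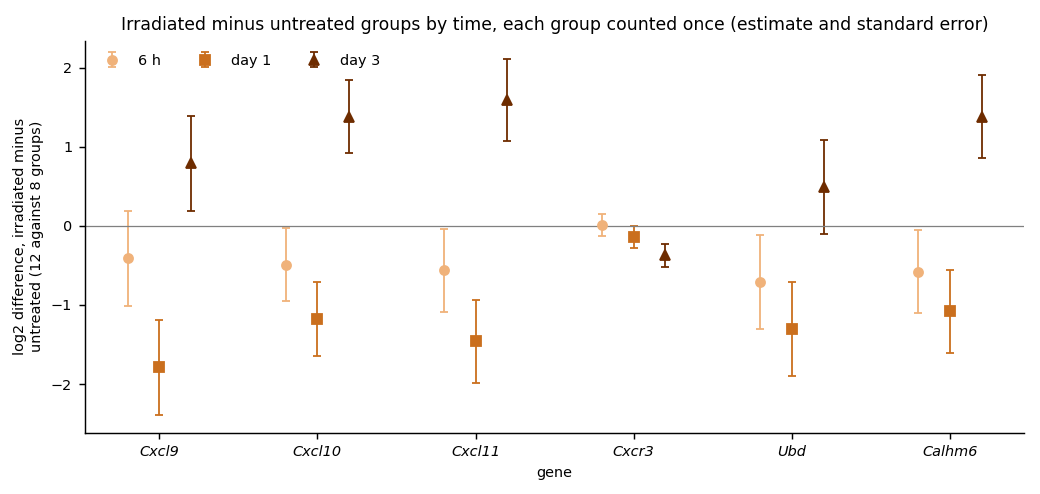
Difference in log2 intensity between irradiated and untreated groups at 6 h, day 1 and day 3 for each tested gene, with each group of 2 arrays counted once (points with standard error, 12 irradiated and 8 untreated groups). Estimates are lowest at day 1 and highest at day 3 for the chemokines, Ubd and Calhm6, and Cxcr3 lies between -0.37 and 0.01.

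The question of the study, carbon ions against gamma rays of the same dose, had an answer that changed with the tumour and with the untreated tumours used. The response to carbon ions minus that to 30 Gy of gamma rays, each against its own arm, was higher in 32 and lower in 19 of 72 combinations (background 10.4% and 8.53%). The direct difference between the irradiated groups was higher in 32 and lower in 21 (25.7% and 23.0%). Of the 45 combinations called both ways, 10 had opposite signs, a count for which no share over all genes is at hand. SCCVII was the tumour in which both ways gave the same counts, 13 of 18 higher after carbon ions and 0 lower, where 7.35% of all genes were higher and 6.58% lower in response and 17.9% and 28.0% directly. At an unadjusted p under 0.05 limma gave 1 lower in response, at day 3. In SCCVII the response differed by 2.45 for Cxcl10 (SE 0.157) and by 2.89 for Cxcl11 (SE 0.169) at 6 h. At day 1 it differed by 2.99 for Calhm6 (SE 0.207, adjusted p = 4.0e-17), and at day 3 only Cxcl9 and Calhm6 still differed, by 0.60 and 0.83. Of the 13 calls, 5 were at 6 h by either way. The genes were chosen by the response of Cxcl9 to carbon ions at 6 h, and other members moved with Cxcl9. The 6 h values of the beam comparison, here and in the other tumours below, are therefore a description and no test.

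In the other tumours the order of the beams turned with the way of comparing, with the tumour or with time. In NFSa 12 of 18 were higher and 0 lower in response, but 5 were higher and 9 lower directly. In NR-S1 2 were higher and 14 lower in response, but 9 were higher and 5 lower directly. Shares over all genes are not at hand for NFSa and NR-S1 alone in these comparisons. Many genes differed between the untreated arms of these 2 tumours, so whether the turn is particular to the genes described here cannot be told. In #8520, 5 of 6 genes were higher after carbon ions at 6 h by both ways (Cxcl9 by 2.97 in response and 2.76 directly, background 10.1% and 19.7%), and at day 1 they were lower, 4 in response and 5 directly, with Cxcl10 at -2.04 and -2.50 (background 8.26% and 15.0%). In NR-S1, Cxcl9 at day 3 was lower in response (-0.94) but higher directly (2.43), with both gamma and carbon-ion levels given above. Ubd and Calhm6 at day 3 in NR-S1 were higher after carbon ions both ways, Ubd by 2.83 in response and 5.78 directly and Calhm6 by 2.16 and 3.10. In NFSa at 6 h, Cxcl9 was higher in response (0.47) and lower directly (-4.64). Counting each group once, limma called 0 of 6 genes between carbon ions and 30 Gy of gamma rays at 6 h, day 1 or day 3, where 0% of all genes were higher and 0% lower at 6 h, 1.19% and 1.86% at day 1, and 1.71% and 3.04% at day 3. At an unadjusted p under 0.05 limma also gave 0 of 6 at each time.

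Between 50 Gy and 30 Gy of gamma rays, whose untreated tumours are the same, 15 of 72 combinations were higher and 30 lower at 50 Gy (background 10.7% and 18.1%). Without the 8 arrays that stand apart it was 14 higher and 12 lower of 48. NR-S1 was lower at 50 Gy for 5 of 6 genes at 6 h (6.03%) and higher for 5 of 6 at day 1 (3.11%) and at day 3 (10.4%), with Ubd at 9.12 and 9.50 at day 3 after 50 Gy against 1.59 and 1.65 after 30 Gy (log2 2.52, SE 0.129, adjusted p = 3.7e-22). NFSa was lower at 50 Gy for 5 of 6 genes at 6 h (8.28%), where Cxcl9 read 7.76 and 7.95 after 50 Gy against 80.2 and 84.8 after 30 Gy (log2 -3.39, SE 0.102, adjusted p = 9.0e-33). At day 3 limma called 0 of 6 in NFSa, against 2 higher at an unadjusted p under 0.05, and Cxcl10 was 0.30 higher at 50 Gy (SE 0.111, adjusted p = 0.162).

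The response differed between tumours for nearly every gene and condition. A moderated F test over the 4 tumours, against untreated tumours of the same arm, called 52 of 54 combinations of gene and condition, 40 of 42 without the 8 arrays. The background was high, at 45.0%, 58.3% and 61.9% of all genes at 6 h, day 1 and day 3 after carbon ions, 36.9%, 52.5% and 56.0% after 30 Gy of gamma rays and 59.6%, 76.5% and 77.0% after 50 Gy. The 2 combinations not called were Cxcr3 at 6 h and at day 3 after 30 Gy of gamma rays. The genes were chosen by such a difference, that of Cxcl9 at 6 h after carbon ions. The calls at that time and beam are therefore a description and no test.

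Cxcr3, the receptor of the 3 chemokines, did not follow its ligands. Its intensity over the 88 arrays had a median of 18.0, with the highest value, 31.2, in untreated NR-S1 of the carbon-ion arm. It read 6.19 to 8.67 on the 8 arrays that stand apart, and no other array was below 13.7. At day 3 it was lower in 5 of 12 groups against the same arm, 7 against both arms, and higher in 0. Over all genes and groups, 26.9% and 31.9% were lower and 19.5% and 23.8% higher. Of the 5, 2 lie on those 8 arrays, with a fall after 50 Gy of gamma rays of 1.35 on the log2 scale in SCCVII and 1.21 in #8520, while in NFSa and NR-S1 the same dose gave -0.07 and -0.03. The other 3 came after carbon ions, at -0.68 in NR-S1, -0.33 in NFSa and -0.33 in #8520, and both comparisons called them. With the groups on those 8 arrays set aside, the same-arm count is close to the share over all genes. In 38 of the 43 steps between groups ranked by level, the arrays of neighbouring groups overlapped, against 20 of 43 for Cxcl9. Its correlation with the other genes over the 44 group means, after removing each tumour's mean, was between -0.10 and 0.10, and between -0.33 and -0.12 over the 40 groups without the 8 arrays. The groups share a platform, 11 a tumour, and these values are descriptions.

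**Figure D5:**
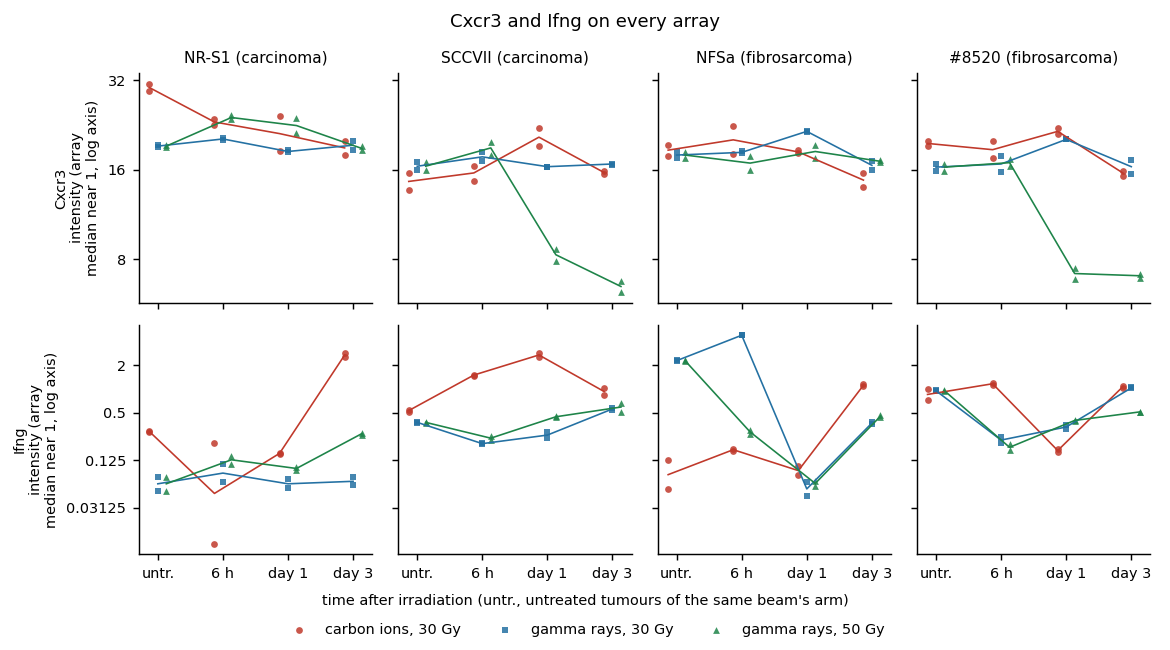
Intensity of Cxcr3 and Ifng on every array (log axis) against time, by tumour and beam, drawn as in the plot of the chemokines. Cxcr3 is between 13.7 and 31.2 on 80 arrays and between 6.19 and 8.67 on the 8 that stand apart, and Ifng reaches 4.83 in NFSa at 6 h after 30 Gy of gamma rays.

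Ifng was dim, in the lowest 25% of its array on 46 of 88 arrays, and whether and how background was subtracted is not given in the sources used here. In NFSa and NR-S1 its brightest group was also bright in the chemokines of the same tumour. In SCCVII its brightest group, day 1 after carbon ions, was brightest in Cxcl9 too, but Cxcl10 and Cxcl11 were higher at day 3 after every beam and dose. In #8520 Ifng was brightest at 6 h after carbon ions. There the mean log2 of each chemokine was below that of untreated tumours of the same arm. In NFSa it read 2.25 and 2.33 untreated in the gamma arm, 4.78 and 4.83 at 6 h after 30 Gy of gamma rays, 0.0446 and 0.0663 at day 1, and 0.364 and 0.378 at day 3. In NR-S1 it read 0.289 and 0.291 untreated in the carbon-ion arm, 0.011 and 0.207 at 6 h, 0.152 and 0.155 at day 1, and 2.53 and 2.87 at day 3 after carbon ions. In SCCVII after carbon ions it read 0.516 and 0.551 untreated, 1.48 and 1.52 at 6 h, 2.58 and 2.83 at day 1 and 0.838 and 1.04 at day 3, so that it peaked with Calhm6 at day 1. Against the same arm, the fit without the filter called Ifng higher in 5 groups, NR-S1 at day 3 after carbon ions (log2 3.22) and after 50 Gy of gamma rays, NFSa at day 3 after carbon ions, and SCCVII at 6 h (1.49) and day 1 (2.34) after carbon ions. It called Ifng lower in 11 groups, 4 at 6 h, 5 at day 1 and 2 at day 3. In the fit with the filter, which leaves Ifng out, 13.7% of all genes and groups were higher and 14.1% lower at 6 h. The shares were 16.7% and 18.6% at day 1 and 19.5% and 26.9% at day 3. The groups with lower Ifng at 6 h were NR-S1 after carbon ions, NFSa after 50 Gy and #8520 after either gamma dose. Those at day 1 were NFSa after either gamma dose and #8520 after every beam and dose, and those at day 3 were NFSa after either gamma dose. The #8520 call at day 1 after 50 Gy is on arrays that stand apart. Against both arms Ifng was lower in 5 groups at 6 h, 7 at day 1 and 0 at day 3, and higher in 2, 1 and 3. The shares of all genes in the fit with the filter were 21.0%, 24.5% and 31.9% lower and 20.1%, 22.1% and 23.8% higher. Over the 44 group means, with each tumour's mean removed, Ifng correlated with Ubd at 0.91, Calhm6 at 0.87, Cxcl9 and Cxcl11 at 0.85 and Cxcl10 at 0.74, values given with no test. Within single tumours of 11 groups the correlation with Cxcl10 was 0.58 in SCCVII and 0.88 in NFSa.

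The genes most like each of the 6 were sought among 12460 others by correlation over the 44 group means. They were Gbp4, Iigp1 and Gbp8 for Cxcl9 (0.93 to 0.94), Irgm2, Irgm1 and Igtp for Cxcl10 (0.94), Iigp1, Igtp and Irgm2 for Cxcl11 (0.96), Gbp4, Batf2 and Gbp8 for Ubd (0.91 to 0.92), and Klrk1, Gbp2b and Gbp6 for Calhm6 (0.94 to 0.95). The Gbp, Irgm, Igtp and Iigp1 genes encode interferon-inducible GTPases of cell defence, Batf2 a transcription factor and Klrk1 the NK receptor NKG2D. For Cxcr3 they were Rad9b, Rplp1 and Rps24 (0.95), whose correlations fell to 0.75, 0.67 and 0.65 without the 8 arrays. Cc2d1a was then the most like, at 0.78. Among the 5 genes other than Cxcr3 and Ifng, pairwise correlations within a tumour ran from 0.64 to 0.94 in NR-S1 and from 0.85 to 0.98 in NFSa.

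Other genes of the pathway were counted in the fit with each group taken once. The shares of all genes called in these contrasts are those given above as background for that fit, here and for the cell markers below. Of 20 other genes induced by interferon gamma, 18 were higher at day 3 than at day 1 (median log2 1.54, all genes -0.05) and 8 were higher at day 3 than in untreated groups (median 0.97, all genes -0.06). Il18bp, a binding protein that blocks interleukin 18, was higher by 1.96 (SE 0.329, adjusted p = 2.3e-05) and Cd274, which encodes PD-L1, by 1.37 (SE 0.461, adjusted p = 0.0217), while Gbp8 was 1.54 with adjusted p = 0.165. Of genes induced by type I interferon, 17 of 18 were higher at day 3 than untreated (median 1.86) and 17 of 18 higher than at day 1 (median 2.05). Mx1, an antiviral GTPase, was higher by 2.56 (SE 0.329, adjusted p = 4.4e-07), Oasl1 by 2.46 (SE 0.296, adjusted p = 1.3e-07) and Mx2 by 2.28 (SE 0.323, adjusted p = 1.9e-06). At 6 h and at day 1 limma called 0 of these 18 in either direction, and at an unadjusted p under 0.05 2 were lower at 6 h and 0 at day 1.

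Of 12 genes of the interferon gamma receptor and its signalling, 5 were higher at day 3 than untreated and 0 lower. Batf2 was higher by 1.12 (SE 0.432, adjusted p = 0.0456), the transcription factor Irf8 by 1.01 (SE 0.207, adjusted p = 2.9e-04) and Stat2 by 1.01 (SE 0.198, adjusted p = 1.8e-04). The receptor genes Ifngr1 (-0.13, adjusted p = 0.696) and Ifngr2 (-0.04, adjusted p = 0.871), the kinase genes Jak1 (0.07) and Jak2 (0.01) and Irf1 (0.20, adjusted p = 0.427) did not pass. Of 11 genes of interferon gamma production 3 were higher, with Il15 at 1.09 (SE 0.174, adjusted p = 1.2e-05) and Il18 at 1.04 (SE 0.186, adjusted p = 5.6e-05), cytokines that act on NK cells. Of 15 other lymphocyte chemokines and receptors 5 were higher, led by Ccl5 at 1.83 (SE 0.344, adjusted p = 1.1e-04) and Ccl3 at 1.33 (SE 0.354, adjusted p = 0.00422). Against day 1, 8 of the 12 signalling genes, 6 of the 11 production genes and 3 of the 15 chemokines and receptors were higher at day 3. Without the 8 arrays, the counts higher at day 3 than untreated were 9 of 20 interferon gamma induced genes, 17 of 18 type I genes, 4 of 12 signalling genes, 2 of 11 production genes and 5 of 15 chemokines and receptors.

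Markers of NK cells and of macrophages were also higher at day 3. All 10 tested NK and cytotoxic markers were higher at day 3 than untreated (median 1.24) and than at day 1 (median 1.73), with granzyme A (Gzma) at 1.92 and perforin (Prf1) at 1.73 against untreated groups. Of 13 macrophage and monocyte markers 9 were higher than untreated (median 0.67) and 8 higher than at day 1. Over all beams, of 10 T cell markers 0 were higher than untreated in limma's test (median 0.28), 1 at an unadjusted p under 0.05, and 6 were higher than at day 1 (median 0.62). Neutrophil markers had another course, with 5 of 8 higher at 6 h (median 1.54), 3 at day 1 and 2 at day 3. Of 9 dendritic cell markers 1 was higher and 2 were lower at day 3 than untreated (median -0.05), and of 6 B cell markers 2 were higher and 1 lower (median 0.29). With lists this short, these counts over all beams and that of neutrophil markers at day 3 cannot be set apart from the share of all genes called. Without the 8 arrays the counts higher than untreated at day 3 were 9 of 10 NK, 8 of 13 macrophage, 0 of 10 T cell, 1 of 8 neutrophil, 2 of 9 dendritic and 1 of 6 B cell markers. After carbon ions alone, 4 of 10 T cell (median 0.81), 4 of 6 B cell and 4 of 8 neutrophil markers were higher at day 3 than untreated (background 10.9%). There 1 B cell marker was lower. After 30 Gy of gamma rays 0 of these markers were higher, and after 50 Gy 1 neutrophil marker was. Carbon ions against 30 Gy of gamma rays at day 3 gave 0 T cell, 1 B cell and 1 neutrophil marker higher. In NFSa after carbon ions the summed intensity of the NK and cytotoxic markers was 14.2 and 14.7 untreated, 12.3 and 13 at 6 h, 16.6 and 17.4 at day 1 and 126.9 and 138.5 at day 3. Calhm6 was also highest at day 3 in that series. At 6 h it was above the untreated level of the same arm (2.49 and 3.01 against 1.14 and 1.17), where the sum was below its own. Against both arms Calhm6 was lower there (log2 -1.23). In NR-S1 the sum of the NK and cytotoxic markers was at most 10.3 in the gamma arm and 57.6 and 61.4 at day 3 after carbon ions, the group in which Ubd, Calhm6 and Ifng were highest in that tumour. T cell markers summed to 44.8 and 46.4 in that group and to 11.2 to 14.1 on the other NR-S1 arrays of the carbon-ion arm. The part of these cells in the levels of the chemokines, Ubd, Calhm6 and Ifng was not tested.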

How the data were processed

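The deposited table holds 1 linear intensity per probe and array. Array medians lay near 1 and some values were at or below 0, and what the authors did to scale the intensities or subtract background is not given in the sources used here. Per the labels' protocols, RNA was extracted with ISOGEN and RNeasy and labelled cRNA was hybridised to CodeLink arrays. Of 36227 probes, 21615 carried 1 gene symbol, 681 several and 13931 none. Values at or below 0 (0.149%) were treated as missing, with 0.751% missing in all. The brightest probe stood for a gene, intensities were put on the log2 scale, and genes in the lowest 25% by mean or with fewer than 80% of values were left out, which kept 13465. A linear model with 44 group means was fitted with limma 3.58.1 in R 4.3.3 (44 residual and 7.3 prior degrees of freedom), with Benjamini-Hochberg adjustment per contrast at 0.05, two-sided, and tested on simulated data. All responses of Ifng used the fit without the filter. The 7 genes, the lists of other genes and the tests were chosen with earlier results of these arrays known. Named genes of a list were signalling genes of a written list and up to 3 with the largest change. The fit with each group counted once, the day 3 against day 1 comparison and the all-4-arrays rule were chosen after seeing the data. Correlations used group means with each tumour's mean removed. The alternatives tried were quantile normalization, median centring, an offset, other filters, the mean of probes, single-tumour fits, a trended robust fit, a replicate block, the other references and leaving out arrays.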

Additional observations from a re-analysis of the deposited data

Results flagged for a closer look

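Among the 4 untreated arrays of #8520, Cxcl9 on the second gamma-arm array was 6.24 on the log2 scale, against 5.80 to 5.86 on the other 3. The gap to the nearest array was 0.864 of the whole range, past the critical value of 0.829, a test that flags about 1 in 20 groups by chance and was applied to 28 groups.

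The response differed between tumours for 6 of 6 genes at 6 h, day 1 and day 3 after carbon ions, for 5, 6 and 5 at those times after 30 Gy of gamma rays, and for 6, 6 and 6 after 50 Gy, by the moderated F test. The set was chosen by such a difference of Cxcl9 at 6 h after carbon ions, so that count is a description and no test. The response to carbon ions differed from that to 30 Gy of gamma rays in 18 of 24 combinations of gene and tumour at 6 h, 20 at day 1 and 13 at day 3. Over all genes, tumours and times, 10.4% were higher and 8.53% lower. The count at 6 h holds the Cxcl9 response by which the set was chosen, and is likewise a description.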

How the results depend on the processing

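The untreated tumours used as reference were the choice that mattered most. Of 288 results recomputed with another reference, 212 kept direction and side of the threshold, 11 lost and 20 gained the call, and 45 reversed. Over the other settings 5151 of 5208 were unchanged in this sense, 22 lost and 31 gained the call, and 4 reversed. With 1 array left out it was 1001 of 1056, with 44 lost, 11 gained and 0 reversed. The cause of these changes was not tested.

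With untreated arrays of both arms, the reversed log2 responses in NR-S1 were 0.34 for Calhm6 at day 1 after carbon ions. After 30 Gy of gamma rays they were -0.25 and -0.32 for Cxcr3 at 6 h and day 3, -0.41 for Calhm6 at day 1 and -0.86 for Ubd at day 3. After 50 Gy they were -0.28 for Cxcl10, -0.46 for Cxcl11, -0.01 for Cxcr3 and -0.57 for Ubd at 6 h, and -0.89 for Cxcl9, -0.89 for Cxcl10, -1.31 for Cxcl11 and -0.87 for Ubd at day 1. In NFSa after carbon ions they were -1.84 for Cxcl9, -1.13 for Cxcl10, -1.35 for Cxcl11 and -1.23 for Calhm6 at 6 h, and -2.02 for Cxcl9 and -2.11 for Calhm6 at day 1. After 30 Gy of gamma rays they were 2.18 for Calhm6 at 6 h, and 0.91 for Cxcl9, 1.49 for Cxcl10, 1.74 for Cxcl11 and 1.46 for Calhm6 at day 3. After 50 Gy they were 0.08 for Cxcl10 at 6 h, and 1.18 for Cxcl9, 1.67 for Cxcl11 and 1.49 for Calhm6 at day 3.

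Carbon ions minus 30 Gy of gamma rays, taken directly, reversed in NR-S1 to 0.19 for Cxcr3 at 6 h, to 2.09 for Cxcl9, 0.53 for Cxcl10, 1.55 for Cxcl11, 0.20 for Cxcr3, 0.10 for Ubd and 0.75 for Calhm6 at day 1, and to 2.43 for Cxcl9 and 0.57 for Cxcl10 at day 3. In NFSa it reversed to -4.64 for Cxcl9, -2.92 for Cxcl10, -3.46 for Cxcl11 and -3.42 for Calhm6 at 6 h, to -0.49 for Cxcl10 and -0.61 for Ubd at day 1, and to -0.31 for Cxcl10 at day 3. In #8520 it reversed to -0.29 for Cxcl10 at day 3. Quantile normalization reversed 4 differences in SCCVII and #8520 at day 3, to 0.27 for Cxcl9 after 50 Gy in SCCVII, -0.38 for the beam difference of Cxcl10 and 0.39 for the dose difference of Cxcl11 in SCCVII, and -0.55 for Cxcl10 after 50 Gy in #8520.

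Counts of calls moved by over 1.5 times for the lower side of the dose difference, 12 of 48 without the 8 arrays, and with each group counted once at day 3. There 0 genes were higher without NR-S1 or without SCCVII, and 0 were lower without the 8 arrays or without any 1 tumour. With 1 array left out, same-arm calls ranged over 17 to 19 higher and 30 to 31 lower at 6 h, 12 to 15 and 44 to 45 at day 1, and 41 to 44 and 13 to 14 at day 3. Untreated arms gave 7 to 8 higher and 6 to 9 lower, the beam difference 31 to 32 and 17 to 21, the dose difference 14 to 16 and 29 to 32, day 3 against day 1 56 higher and 7 to 10 lower, and the tumour difference 50 to 52.

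The labels do not say whether replicate numbers pair the arrays, and a check of deviations from the group means did not settle it. Over 28 pairs of groups the correlation of deviations ran from -0.19 to 0.39, with 7 over 0.1. With the replicate number as a block, same-arm calls were 18 higher and 31 lower at 6 h, 13 and 45 at day 1 and 42 and 14 at day 3, with 32 and 20 for the beam difference, 16 and 31 for the dose difference and 56 and 8 for day 3 against day 1. Groups of 2 arrays limit the precision, most of all for Ifng, which is dim.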
